A study of Mus musculus with 4 samples.

Results

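Scx, Mkx and Tnmd, 3 genes that mark and shape tendon, were followed through every cell population of the mouse Achilles tendon. They were chosen by name, with earlier results of these data known, and all 3 were found among the 15746 genes counted. The study set out to catalogue the cell populations of tendon. Its 4 libraries form a single group: Achilles tendons of male C57Bl/6 mice aged 6 weeks, with no treatment, transgene or altered allele named in the labels, processed with the 3′ chemistry (version 3) of 10x Genomics. Reads that share a molecular identifier were counted once per cell, and the values below are these counts (UMIs). Nothing in the labels ties a library to 1 mouse or to several. The p-values weigh a difference within libraries against how much it varied from library to library, which may be technical. The authors sorted the 1191 cells into 13 populations from the same counts, and those names were kept.

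Scx encodes scleraxis, a basic helix-loop-helix (bHLH) transcription factor that pairs with E proteins, binds E-box motifs and marks tendon progenitors and tendon cells. Mkx encodes Mohawk, a homeobox transcription factor needed for normal collagen fibrils in tendon. Tnmd encodes tenomodulin, a transmembrane glycoprotein related to chondromodulin that is used as a marker of mature tenocytes and is known to act downstream of scleraxis.

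In the mm10 build (GRCm38) with GENCODE annotation, Scx (ENSMUSG00000034161.8) spans chr15:76457452-76459458 on the plus strand. All 2007 bases lie inside an intron of Bop1, a ribosome biogenesis gene of the opposite strand at chr15:76452989-76477277. No exon of Bop1 overlaps Scx, and whether the counting used strand is not given in the sources used here. Bop1 had 190 UMIs in all. Tnmd (ENSMUSG00000031250.8) spans chrX:133850980-133865577 on the plus strand. Of the 3 genes, Tnmd was matched in the table of RefSeq promoters (GRCm38.p6). Its upstream window is shown because scleraxis binds E-boxes: 222 bases at chrX:133850758-133850979, plus strand, from 250 to 29 bases before the RefSeq start. No base is in capitals because the motif searched, CANNTG on both strands with no overlap with another motif, was not found.

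Tnmd upstream window: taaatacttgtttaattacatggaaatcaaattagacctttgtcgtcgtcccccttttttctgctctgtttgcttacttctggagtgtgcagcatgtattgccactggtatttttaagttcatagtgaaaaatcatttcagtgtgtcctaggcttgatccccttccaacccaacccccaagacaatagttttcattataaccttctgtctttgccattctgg

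The letters CANNTG stand in 20498 of 32851 RefSeq promoter windows of that length (62.4%), so their absence from this window is a description of these 222 bases only.

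Libraries 1 to 4 held 580, 246, 256 and 109 cells, with 5603366, 2252390, 2269014 and 1375111 UMIs and medians of 7440, 7723, 7592 and 8824 UMIs per cell. No barcode was shared between libraries. The libraries differed in their makeup: tendon fibroblasts (populations 1, 2 and 3) were 29.7%, 5.69%, 63.3% and 29.4% of the cells. Col1a1, which encodes a chain of type I collagen, had 46355, 44043 and 42648 UMIs per 1000000 in the 3 tendon fibroblast populations, against 3885 in bursal fibroblasts and 81.8 to 1090 in the other populations.

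All 3 genes were sparse, and nearly all of their UMIs lay in tendon fibroblasts. Scx had 154 UMIs in 88 cells (7.39% of all cells, at most 11 in a cell), of which 146 (94.8%) were in tendon fibroblasts. Mkx had 200 UMIs in 121 cells (10.2%, at most 5), with 195 (97.5%) in tendon fibroblasts. Tnmd had 1727 UMIs in 236 cells (19.8%, at most 67), with 1668 (96.6%) there. Outside tendon fibroblasts and pericytes, 704 cells remained, and Scx, Mkx and Tnmd were seen in 8, 1 and 10 of them (1.14%, 0.142% and 1.42%), at 1 or 2 UMIs a cell. In sparse counts a cell without a UMI may still express the gene, so such cells are called cells without a UMI and not negative cells.

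Levels are given as UMIs of a gene per 1000000 UMIs (CPM) of all cells of a population in a library, and means cover libraries with 5 or more such cells. Scx was highest in tendon fibroblasts 1, where libraries 1 to 4 had 60.5, 62.5, 76.8 and 37.8 CPM (59.4 ± 16.2, SD, n = 4). Tendon fibroblasts 2 had 19.2, 18.6 and 8.06 CPM of Scx in libraries 1, 3 and 4 (15.3 ± 6.27, SD, n = 3), and library 2 had no Scx UMI in its 2 cells of that population. The ranges of both populations did not overlap. Below them, every population had at most 3 Scx UMIs: 3 in nerve cells 2 (5.68 CPM, exact 95% interval 1.17 to 16.6), 2 in bursal fibroblasts (2.40 CPM, 0.291 to 8.68) and 1 each in tendon fibroblasts 3 (2.71 CPM, 0.0686 to 15.1), endothelial cells 1, endothelial cells 2 and immune cells. These intervals overlap, so no order among the low populations can be read. Intervals and limits here and below cover counting error only.

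Mkx (ENSMUSG00000061013.6, chr18:6934518-7004780, minus strand) followed the same order with more spread. Its levels in tendon fibroblasts 1 were 55.7, 54.7, 95.7 and 64.2 CPM in libraries 1 to 4 (67.6 ± 19.2, SD, n = 4). Tendon fibroblasts 2 had 14.1, 59.3 and 16.1 CPM of Mkx in libraries 1, 3 and 4 (29.8 ± 25.5, SD, n = 3), so that library 3 lay within the range of tendon fibroblasts 1. Pericytes had 4 UMIs of Mkx in 3 cells (3.35 CPM, 0.913 to 8.57), bursal fibroblasts had 1, and the 9 other populations, tendon fibroblasts 3 among them, had none. In the 51 cells of tendon fibroblasts 3, of which 45 were in library 1, 0 UMIs allow a level of up to 8.12 CPM.

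Tnmd had another order. Tendon fibroblasts 2 had 256, 982 and 733 CPM in libraries 1, 3 and 4 (657 ± 369, SD, n = 3), and tendon fibroblasts 1 had 364, 266, 255 and 215 CPM in libraries 1 to 4 (275 ± 63.4, SD, n = 4). Library 1 of tendon fibroblasts 2 lay within the range of tendon fibroblasts 1, and the other libraries lay above it. Library 4 rests largely on single cells: 1 of its 9 tendon fibroblasts 2 held 67 of their 91 Tnmd UMIs. Of its 21 tendon fibroblasts 1, 1 held 36 of their 57. Pericytes, the mural cells of small vessels, came next with 29.1, 52.5, 0 and 61.8 CPM of Tnmd (35.8 ± 27.6, SD, n = 4). Tendon fibroblasts 3 had 6 UMIs in 4 of 51 cells (16.2 CPM, 5.96 to 35.4), an interval that overlaps that of pericytes (29.6 to 53.3). Library 1 held 45 of these 51 cells (13.5 CPM) and was the only library with 5 or more. Red blood cells (4 UMIs, 5.46 CPM, 1.49 to 14.0), immune cells (3 UMIs, 4.23 CPM), endothelial cells 1 (3 UMIs, 1.51 CPM) and endothelial cells 2 (1 UMI) followed. Bursal fibroblasts had no Tnmd UMI in 40 cells, which allows up to 3.61 CPM, at a median of 20284 UMIs per cell.

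**Figure D1:**
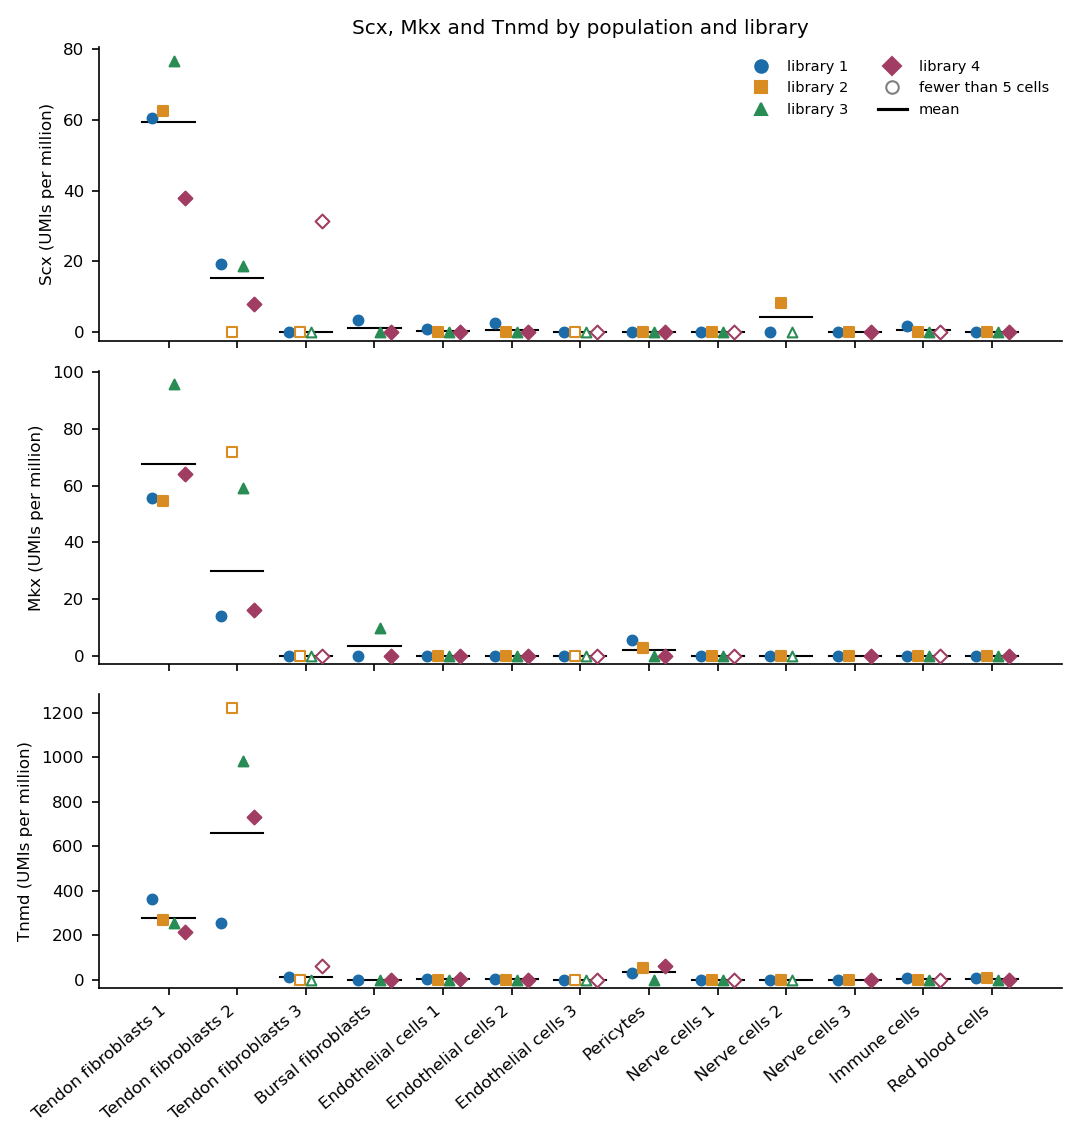
Level of each gene (y axis, UMIs per 1000000 UMIs, 1 panel a gene, own scale) in the 13 populations (x axis), with 1 symbol per library, open symbols for libraries with fewer than 5 cells and a bar at the mean of the others. Scx lies at 37.8 to 76.8 in tendon fibroblasts 1 and at 8.06 to 19.2 in tendon fibroblasts 2, while Tnmd reaches 982 in tendon fibroblasts 2 and also lies above 0 in pericytes of 3 libraries.

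Shares of cells with at least 1 UMI were compared next. Scx was seen in 54 of 173 tendon fibroblasts 1 (31.2%, exact 95% interval 24.4% to 38.7%) and in 25 of 156 tendon fibroblasts 2 (16.0%, 10.6% to 22.7%). Mkx was seen in 77 (44.5%, 37.0% to 52.2%) and 40 (25.6%, 19.0% to 33.2%) of them, and Tnmd in 103 (59.5%, 51.8% to 66.9%) and 92 (59.0%, 50.8% to 66.8%). Their median depths were 8824 and 10662 UMIs. As background, in endothelial cells 1, with a median of 7343 UMIs, the shares were 0.526% for Scx, 0 of 190 cells for Mkx (which allows up to 1.58% of cells with a UMI and sets no limit on cells that express it) and 1.58% for Tnmd.

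Thinning every cell to 2400 UMIs lowered the shares and left out 12 cells of tendon fibroblasts 1 and 8 of tendon fibroblasts 2. The thinned shares were 11.8% and 3.38% for Scx, 19.9% and 9.46% for Mkx, and 36.0% and 51.4% for Tnmd. For Tnmd the pooled shares joined libraries that went opposite ways. At full depth library 1 had Tnmd in 68.3% of tendon fibroblasts 1 and 31.3% of tendon fibroblasts 2, library 3 in 54.2% and 80.8%, and library 4 in 42.9% and 77.8%. At 2400 UMIs library 1 still had the larger share in tendon fibroblasts 1 (28 of 58 cells against 12 of 63), and libraries 3 and 4 in tendon fibroblasts 2 (22 of 75 against 59 of 75, and 4 of 19 against 4 of 8). Cells with Tnmd also held different numbers of its UMIs, a mean of 4.94 and a median of 3 in tendon fibroblasts 1 but 12.5 and 9 in the second population, where 41 of the 92 held more than 10. Scx and Mkx were mostly seen as a single UMI, in 29 of 54 and 46 of 77 of the cells with them in tendon fibroblasts 1.

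**Figure D2:**
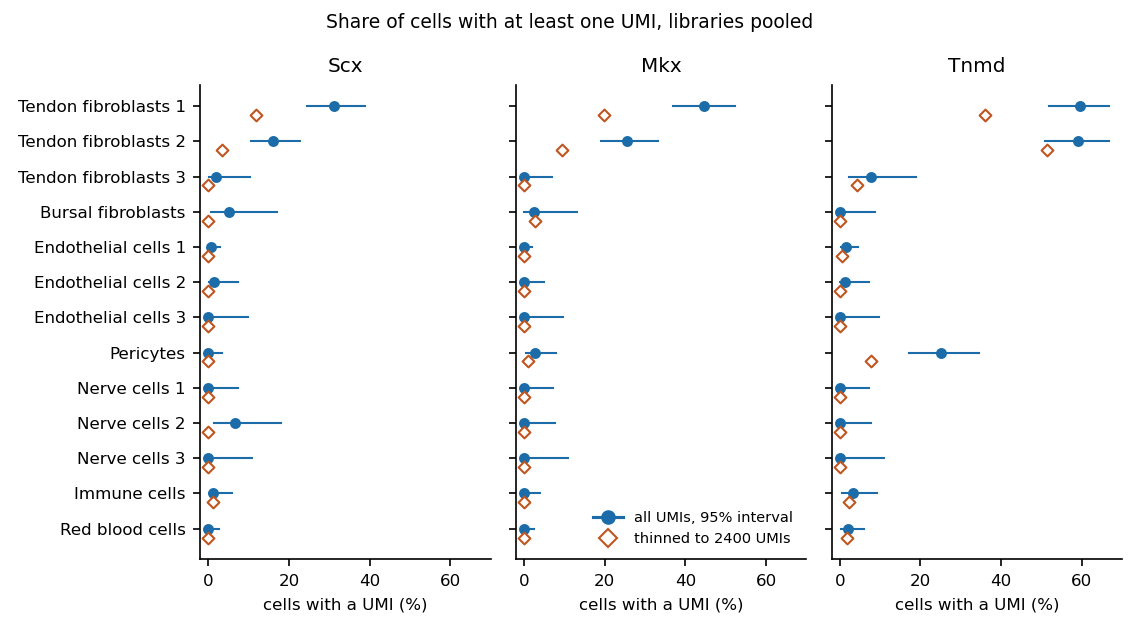
Share of cells with at least 1 UMI of each gene (x axis, percent) in the 13 populations (y axis), libraries pooled, with exact 95% intervals at full depth (filled circles) and after thinning each cell to 2400 UMIs (open diamonds). Tnmd stands at 59.5% and 59.0% in tendon fibroblasts 1 and 2 and at 25.2% in pericytes, and the thinned shares of all 3 genes are lower.

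Scx was higher in tendon fibroblasts 1 than in tendon fibroblasts 2, and so was Mkx, while Tnmd did not pass the test. The comparison used libraries 1, 3 and 4, and 572 of 7043 genes passed an adjusted p of 0.05 (8.12%, with 4.33% higher and 3.79% lower) in the quasi-likelihood test of edgeR with the library as a block. Scx was higher by a log2 fold change of 2.03 ± 0.31 (SE, adjusted p = 0.00313 by edgeR, 58.4 ± 19.6 against 15.3 ± 6.27 CPM, higher in 3 of 3 libraries), and passed in all 7 alternatives that could be run. Mkx was higher by 1.40 ± 0.36 (adjusted p = 0.0437 by edgeR, 71.9 ± 21.1 against 29.8 ± 25.5 CPM, 3 of 3 libraries). Neither Scx nor Mkx would have passed the low-count filter through tendon fibroblasts 2 alone, so the filter favoured a call in this direction. The call for Mkx held in 3 of 8 alternatives: it was lost with DESeq2 (adjusted p = 0.103), without the block (0.198), after thinning (0.178), without library 1 (0.286) and without library 4 (0.0962), and without library 3 the fold change was 2.22. Tnmd had a log2 fold change of -0.88 ± 0.46 (adjusted p = 0.370 by edgeR, 278 ± 77.3 against 657 ± 369 CPM), and library 1 went the other way. Without library 1 it was -1.73 (adjusted p = 0.00672). Bop1, whose intron holds Scx, had 15.4 ± 10.1 against 17.3 ± 4.04 CPM in the same sums (log2 fold change 0.07, adjusted p = 0.979).

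Genes tied to these 3 by their biology differed between tendon fibroblasts 1 and 2 in both directions. Their lists were drawn up with earlier results of these data known, so counts from them, here and below, are descriptions. Of 24 tendon matrix genes tied to scleraxis and Mohawk, 10 were higher and 4 lower in tendon fibroblasts 1 (median log2 fold change 0.64, against 0.01 for all genes tested). Chad, which encodes the cartilage matrix protein chondroadherin, was higher by 5.55, Cilp by 3.81, Cilp2 by 3.51 and Fibin by 3.25. Col14a1 fell by 7.10 on the log2 scale, Lum by 2.25, Kera by 2.19 and Col3a1 by 1.98. Of 8 bHLH partners and inhibitors tested, Id1 (2.25) and Id2 (1.20), whose products bind E proteins and keep them from DNA, were higher and none was lower. Of 13 other tendon and limb transcription factors, Sox9 (2.71), the chondrocyte regulator, Runx1 (1.13) and Klf2 (1.04) were higher and none lower. Among 3 tested relatives of tenomodulin with its BRICHOS domain, Itm2c was higher by 0.91 and Itm2a fell by 2.57 on the log2 scale. In TGF-beta signalling, which induces scleraxis in tendon cells, 3 of 13 genes were higher: Ctgf (3.74), Tgfb1 (1.46) and Skil (1.12). Of 5 cartilage genes tested, Cytl1 (7.88), Hapln1 (4.68) and Acan were higher, and of 6 genes of interstitial fibroblasts none was higher and 5 fell, among them Dpt by 7.58 and Cd34 by 5.75. Of 15 genes that respond to tissue dissociation, 5 were higher in tendon fibroblasts 1 and none lower (median 0.83), and their part in the differences above was not tested.

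Against bursal fibroblasts, the cells of the lubricated sac beside the tendon, all 3 genes were higher in tendon fibroblasts 1, among 777 of 5186 genes that passed (15.0%, with 8.99% higher and 6.00% lower). Scx was 26.7-fold higher by the ratio of CPM (exact 95% interval 7.21 to 224, 105 against 2 UMIs, adjusted p = 0.000329 by edgeR). Mkx was 62.6-fold higher (11.0 to 2492, 123 against 1 UMI, adjusted p = 0.000197), and Tnmd at least 80.6-fold higher (475 against 0 UMIs, against a limit of 3 counts over the 3 libraries, adjusted p = 3.25e-06). All 3 genes passed the low-count filter through tendon fibroblasts 1 alone, so a call could only go in this direction. The bursal sums of libraries 1, 3 and 4 held 30, 5 and 5 cells. In tendon fibroblasts 2, where 320 of 4960 genes passed (6.45%, with 4.15% higher), Tnmd was at least 179-fold higher than in bursal fibroblasts (adjusted p = 0.000160). Scx and Mkx were too low there to be tested, with CPM ratios of 7.54 (1.92 to 65.0) and 30.2 (5.22 to 1210). Tnmd again passed the filter through the tendon fibroblasts alone. Of the tendon matrix genes, 17 of 22 tested were higher in tendon fibroblasts 1 than in bursal fibroblasts and none lower.

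Set against all other cells of the same library, tendon fibroblasts were higher in each of the 3 genes in 4 of 4 libraries, among 2802 of 9541 genes that passed (29.4%, with 13.5% higher and 15.9% lower). The log2 fold changes were 5.29 ± 0.46 for Scx (37.7 ± 9.19 against 0.682 ± 0.790 CPM, adjusted p = 4.61e-05 by edgeR), 5.93 ± 0.41 for Mkx (48.4 ± 20.2 against 0.693 ± 0.636, adjusted p = 1.27e-05) and 5.64 ± 0.50 for Tnmd (386 ± 176 against 7.88 ± 6.57, adjusted p = 5.04e-05). Scx and Mkx passed the low-count filter through tendon fibroblasts alone, so a call for them could only go in this direction. Tnmd would not have passed through the other cells alone either, so the filter favoured a call in this direction. All 23 tendon matrix genes tested were higher as well.

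Many tendon fibroblasts carried more than 1 of the genes. Of 173 tendon fibroblasts 1, 41 had none of the 3, 53 had 1, 56 had 2 and 23 had all 3, so 45.7% carried 2 or 3. Libraries 1 to 4 gave 30 of 60 (50%), 5 of 9 (55.6%), 37 of 83 (44.6%) and 7 of 21 (33.3%), a mean of 45.9% ± 9.51 (SD, n = 4). Mkx with Tnmd was the most frequent pair (33 cells), Scx with Tnmd was found in 18 and Scx with Mkx in 5. Cells with a single gene had Tnmd (29), Mkx (16) or Scx (8).

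Of 156 tendon fibroblasts 2, 54 had none, 58 had 1, 33 had 2 and 11 had all 3, so 28.2% carried 2 or 3. The libraries were far apart: 8 of 67 cells in library 1 (11.9%), 33 of 78 in library 3 (42.3%) and 2 of 9 in library 4 (22.2%), a mean of 25.5% ± 15.5 (SD, n = 3). Tnmd alone was the most frequent state (50 cells), and Mkx with Tnmd followed (23). Elsewhere, cells with 2 of the genes were rare, with 1 of 51 tendon fibroblasts 3 (Scx with Tnmd), 1 of 107 pericytes (Mkx with Tnmd) and none of 40 bursal fibroblasts. At 2400 UMIs a cell, 11.2% of tendon fibroblasts 1 and 8.11% of tendon fibroblasts 2 carried 2 or 3.

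**Figure D3:**
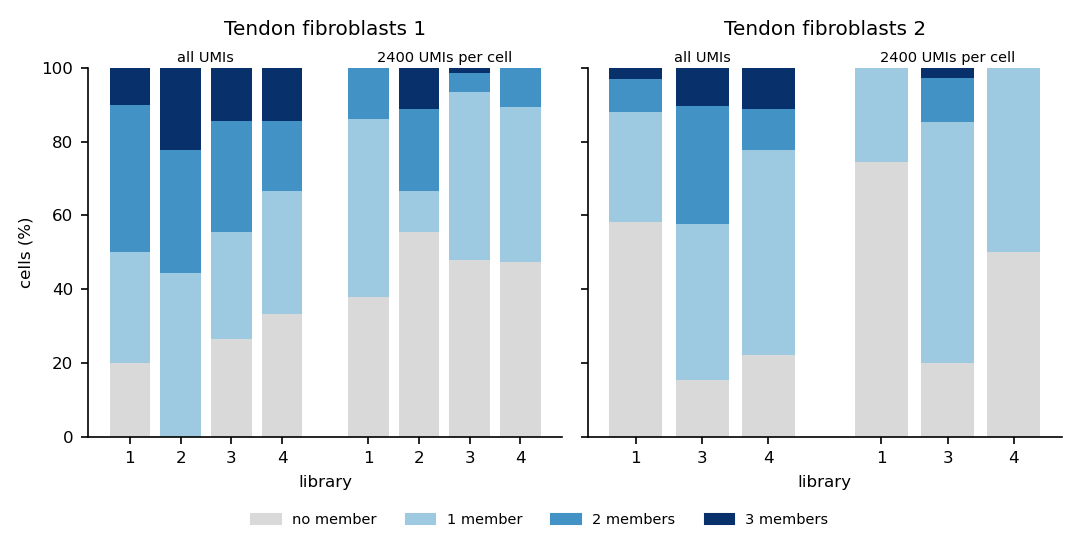
Percent of cells (y axis) with none, 1, 2 or all 3 of Scx, Mkx and Tnmd (the members of the legend) in each library with 5 or more cells (x axis), at full depth and after thinning to 2400 UMIs per cell. At full depth 33.3% to 55.6% of tendon fibroblasts 1 carry 2 or 3 of the genes and 11.9% to 42.3% of tendon fibroblasts 2, and after thinning the dark parts of the bars shrink in both.

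The genes met in the same cells more often than their single shares multiply to, at full depth. Beside that product, taken within each library, the 41 tendon fibroblasts 1 with Scx and Tnmd compare with 32.6 (above in 4 of 4 libraries), the 56 with Mkx and Tnmd with 45.5 (3 of 4), and the 28 with Scx and Mkx with 23.7 (3 of 4). Tnmd was in 75.9% of the cells with Scx and 52.1% of those without, and in 72.7% of the cells with Mkx and 49.0% of those without. Cells with a gene were also deeper. The median depth was 11686 UMIs in tendon fibroblasts 1 with Scx and 7749 in those without, 11894 and 7124 for Mkx, 11714 and 5172 for Tnmd, and 12768 in cells with 2 or 3 of the genes against 3900 in cells with none. At 5000 UMIs Tnmd was in 63.6% of the cells with Scx and 50% of those without, and in 62.5% and 49.5% for Mkx, above the product in 4 of 4 libraries for both pairs, while Mkx was in 27.3% of the cells with Scx and 31.6% of those without. At 2400 UMIs Tnmd was in 42.1% of the cells with Scx and 35.2% of those without, and in 34.4% and 36.4% for Mkx (above the product in 3 of 4 libraries for each pair), while Mkx was in 15.8% and 20.4% by Scx. With 2 or more UMIs required of each gene, Scx and Tnmd were together 1.46 times, and Mkx and Tnmd 1.57 times, as often as the product. Scx and Mkx were together 1.41 times as often (6 cells against 4.27). That setting kept full depth, so it does not even out the depth of the cells.

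In the cells of tendon fibroblasts 2, Tnmd was in 85.0% of the cells with Mkx and 50% of those without, and Mkx was in 52.0% of the cells with Scx and 20.6% of those without. Thinned to 2400 UMIs, Tnmd was in 11 of 14 cells with Mkx (78.6%) and 65 of 134 without (48.5%), and Mkx in 2 of 5 cells with Scx. Library 3 had most of the cells with Mkx (29 of 40) and with Tnmd (63 of 92), so the pooled shares also carry the difference between libraries. Here depth differed less for Tnmd: the median was 9907 UMIs with it and 10815 without.

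Splitting tendon fibroblasts 1 by Scx gave 54 cells with a UMI and 119 without. Sums of both sides in libraries 1, 3 and 4 were compared, with Scx itself left out, and 8 of 3579 genes passed (0.224%), 6 higher (0.168%) and 2 lower (0.0559%) in the cells with Scx. The higher genes are matrix genes and secreted proteins. Col1a1 had 67393, 53446 and 61827 CPM with Scx against 35732, 34079 and 30134 without (log2 fold change 1.0 ± 0.14, adjusted p = 0.00334 by edgeR), and all 3 values with Scx lay above all 3 without. Col1a2, the other chain of type I collagen, was higher by 1.21 ± 0.16 (41274 ± 3931 against 19671 ± 3066 CPM, adjusted p = 0.00334). Thbs4, a thrombospondin of tendon matrix, had 3347, 3603 and 1679 CPM with Scx against 1574, 2389 and 1166 without (0.88 ± 0.16, adjusted p = 0.0315). Serpinf1, which encodes the secreted factor PEDF, was higher by 1.09 and Olfml3 by 1.48 (adjusted p = 0.0315 each). The genes that fell were Has1, a hyaluronan synthase, with 17.3, 22.5 and 25.2 CPM with Scx against 168, 60.3 and 165 without (-2.30 ± 0.38, adjusted p = 0.0240), and Frzb, a secreted Wnt antagonist (-1.63 ± 0.31, 37.5 ± 13.5 against 131 ± 80.0 CPM, adjusted p = 0.0315). Has1 passed the low-count filter through the cells without Scx alone, so it could only be called lower. Frzb would not have passed through the cells with Scx alone, so the filter favoured a fall. The remaining gene, Wif1, was higher in 2 of 3 libraries, falls outside the naming rule and is named after its values were seen.

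Tnmd had 546, 316 and 428 CPM in tendon fibroblasts 1 with Scx and 259, 211 and 41.2 in those without, in libraries 1, 3 and 4. It was higher on the Scx side in 3 of 3 libraries (log2 fold change 1.36 ± 0.31) but did not pass (adjusted p = 0.0969 by edgeR, 1.22e-06 to 1.0 over 10 alternatives). In library 4, 1 cell with Scx held 36 of the 57 Tnmd UMIs of this population. Mkx had no common direction, with 30.3, 90.1 and 84.0 CPM with Scx against 70.4, 99.7 and 48.0 without (-0.13 ± 0.34, adjusted p = 0.969). The 22 tendon matrix genes tested all had a log2 fold change above 0 (median 0.24, against -0.00 for all genes tested), and Col1a1, Col1a2 and Thbs4 passed. No gene of the dissociation list passed (median 0.04). The 8 calls depended on the fit: without the block, after thinning, and without cells that hold markers of other types no gene passed, DESeq2 called 2, and without libraries 1, 3 or 4 there were 5, 18 or 28. Among cells matched for depth 10 genes passed, 5 of them shared with the 8. Over all 10 alternatives the log2 fold change was 0.76 to 1.15 for Col1a1, 0.98 to 1.35 for Col1a2 and 0.60 to 1.03 for Thbs4. Without cells with markers of other types it was 1.15, 1.35 and 0.60. The summed endothelial markers were 12.9 to 50.4 CPM with Scx and 6.86 to 27.7 without, the immune markers 0 to 16.1 and 6.86 to 17.6, and the Schwann and nerve markers 32.2 to 75.6 and 44.1 to 80.5.

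Splitting tendon fibroblasts 1 by Mkx gave 77 cells with a UMI and 96 without, and 2 of 3617 genes passed (0.0553%): Tnmd and Zfp36. Tnmd had 417, 352 and 375 CPM with Mkx against 292, 108 and 32.4 without, in libraries 1, 3 and 4 (log2 fold change 1.43 ± 0.29, adjusted p = 0.0434 by edgeR), so that the 3 values with Mkx lay above the 3 without. The value with Mkx in library 4 rests largely on 1 cell, which held 36 of the 57 Tnmd UMIs of this population there. Zfp36, which encodes the RNA-binding protein tristetraprolin and is among the genes that respond to dissociation, had 376, 361 and 99.0 CPM with Mkx against 121, 189 and 24.3 without (1.32 ± 0.24, adjusted p = 0.0173). Neither Tnmd nor Zfp36 would have passed the low-count filter through the cells without Mkx alone, so the filter favoured calls on the side with Mkx. The other 14 genes of the dissociation list did not pass (list median 0.31, against -0.01 for all genes). Scx had 38.4, 96.5 and 35.4 CPM with Mkx against 90.9, 47.3 and 40.5 without (-0.02 ± 0.37, adjusted p = 0.993). None of the 21 tendon matrix genes tested passed (median 0.18). Matching for depth could not even out this split. In library 3 the 40 cells with Mkx (median 10393 UMIs) took all but a few of the 43 without (median 5931). The call for Tnmd held in 3 of 10 alternatives, among them these cells matched for depth (1.34, adjusted p = 0.0451). It was lost with DESeq2 (adjusted p = 1.0), without the block (0.991), after thinning (0.72, adjusted p = 0.729), without cells that hold markers of other types (0.856) and without library 1, 3 or 4 (0.113, 0.897 and 0.0900), with log2 fold changes of 0.72 to 2.27 over the 10. The median mitochondrial share of UMIs was lower in the cells with Mkx in each of libraries 1, 3 and 4 (3.01% against 5.20%, 3.86% against 5.55% and 3.80% against 5.07%), and its part in the 2 calls was not tested.

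**Figure D4:**
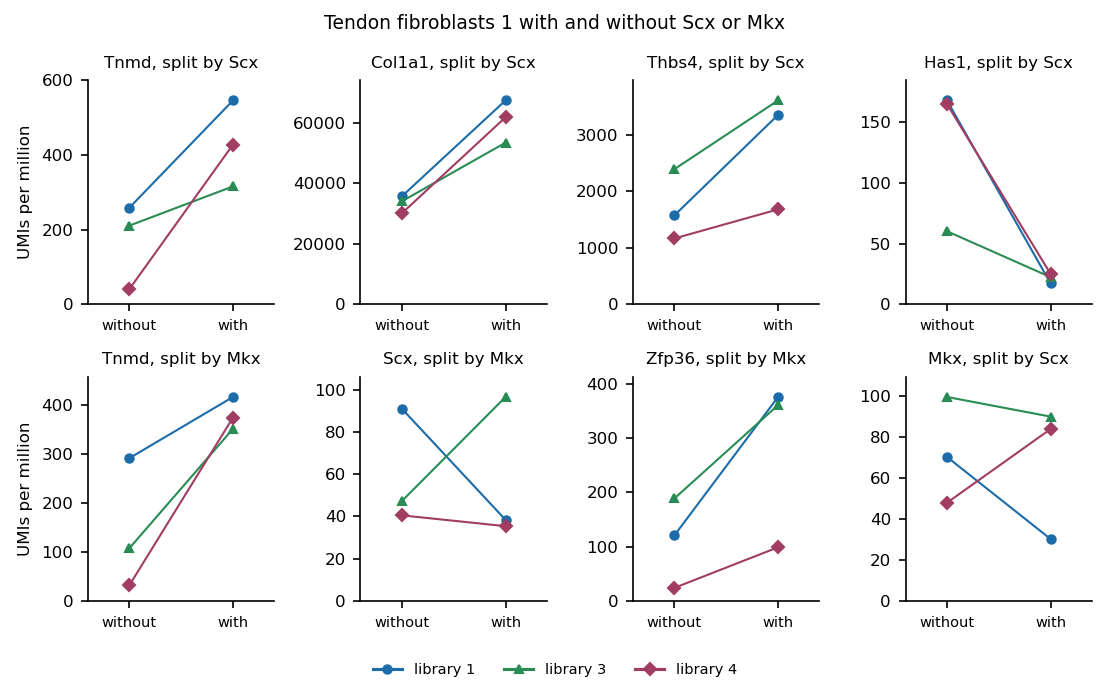
Level (y axis, UMIs per 1000000 UMIs, own scale in each panel) in tendon fibroblasts 1 without and with a UMI of Scx or Mkx (x axis), with 1 line per library. Tnmd and Col1a1 lie higher in cells with Scx and Has1 lower in all 3 libraries, Tnmd and Zfp36 lie higher in cells with Mkx, and the lines of Scx and Mkx cross.

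Splitting tendon fibroblasts 1 by Tnmd itself gave 103 cells with a UMI and 70 without, and 0 of 2499 genes passed in edgeR, with 242 at an unadjusted p under 0.05 and 4 called by DESeq2. The nearest was Serpinf1, with 2056, 2040 and 867 CPM against 380.2, 725 and 477 (log2 fold change 1.68 ± 0.27, adjusted p = 0.0607). Thbs4 (1.51) and Col1a2 (1.52) had an adjusted p of 0.102 each. Chad, which was higher in this population than in tendon fibroblasts 2, had 12768, 15030 and 13877 CPM with Tnmd against 18038, 13281 and 13093 without (0.01 ± 0.27), and Comp, which encodes a thrombospondin of tendon and cartilage, had a log2 fold change of 0.04 ± 0.28. Mkx had 58.2, 84.4 and 64.2 CPM with Tnmd against 44.2, 125 and 64.2 without (-0.13 ± 0.34, adjusted p = 0.927), and Scx, too low to be tested, had 67.9, 88.1 and 32.1 against 26.5, 48.0 and 45.8.

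Cells of tendon fibroblasts 1 with 2 or 3 of the genes were set against cells with none, with all 3 genes left out. Of 1597 genes, 3 passed (0.188%), all higher in the cells with 2 or 3. Thbs4 had 2832, 3726 and 1918 CPM against 449, 1243 and 340.0 (log2 fold change 2.22 ± 0.28, adjusted p = 0.00120 by edgeR). Serpinf1 was higher by 1.75 ± 0.25 (1757 ± 643 against 539 ± 219 CPM, adjusted p = 0.00251) and Olfml3 by 2.54 ± 0.48 (172 ± 52.7 against 30.3 ± 13.9 CPM, adjusted p = 0.0450). Olfml3 passed the low-count filter through the cells with 2 or 3 genes alone, so a call for it could only go in this direction. Thbs4 and Serpinf1 passed in 8 of 10 alternatives each and Olfml3 in 4 of 8. Without the block no gene passed, and without libraries 1, 3 or 4 there were 0, 18 and 30. The dissociation list had a median of 0.65 with no gene called, and its summed level was higher in the cells with 2 or 3 genes in 3 of 3 libraries (5002 to 9834 against 3876 to 7885 CPM). The immune markers summed to 0 to 14.6 CPM in the cells with 2 or 3 genes and 22.7 to 35.9 in those with none, and the median mitochondrial share of UMIs was 3.36% and 6.77%. The part of these differences in the 3 calls was not tested.

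For tendon fibroblasts 2, only libraries 1 and 3 had 5 or more cells on both sides of Mkx or Tnmd, so sums of 2 or more cells were compared, a choice made after seeing the data. No gene of 3495 passed in edgeR for Mkx (223 at an unadjusted p under 0.05, 12 called by DESeq2) and none of 2430 for Tnmd (213 and 82). Tnmd had 755, 1058 and 2037 CPM with Mkx against 174, 929 and 119 without (log2 fold change 1.98 ± 0.55, adjusted p = 0.334). The last value with Mkx, of library 4, comes from 2 cells, 1 of which held 67 Tnmd UMIs. Cd55, which encodes a complement-decay factor, had 36.6, 23.5 and 57.3 CPM in cells with Tnmd against 623, 227 and 1195 in cells without (-3.60 ± 0.37, adjusted p = 0.184). Procr, the protein C receptor gene, had 47.0, 40.1 and 252 CPM against 543, 359 and 1331 (-2.75 ± 0.40, adjusted p = 0.319). Chad had 1102, 826 and 229 CPM with Tnmd against 11.9, 139 and 27.2 without (4.43 ± 0.95, adjusted p = 0.388). For Cd55, Procr and Chad, named after their values were seen, the 3 values with Tnmd did not overlap those without, but none passed. Of 23 tendon matrix genes tested, 22 had a log2 fold change above 0 (median 1.88, against 0.04 for all genes), and Scx had 41.8, 20.8 and 11.5 CPM with Tnmd against 11.9, 7.32 and 0 without.

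Outside the fibroblasts, pericytes were the population with the most Tnmd. A UMI was found in 11 of 55, 10 of 25, 0 of 11 and 6 of 16 pericytes of libraries 1 to 4, in all 27 of 107 (25.2%, exact 95% interval 17.3% to 34.6%), with at most 4 UMIs in a cell. Endothelial cells 1 had Tnmd in 3 of 190 cells, at median depths of 9188 and 7343 UMIs. At 2400 UMIs the shares were 7.69% and 0.568%. Pericytes had no Scx UMI, which allows up to 2.51 CPM. The mean level of Tnmd was 35.8 ± 27.6 CPM in pericytes and 1.30 ± 1.59 in endothelial cells 1, and pericytes had the larger value in 3 of 4 libraries (log2 fold change 4.44 ± 0.65). The fit of these sums was added after Tnmd had been seen in pericytes and was run without the low-count filter, which would have removed Tnmd, so the fold change is a description and no p is given for it. In that fit 2918 of 14498 genes passed (20.1%, with 9.69% higher and 10.4% lower).

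The tendon genes Fmod, Comp, Chad and Thbs4 were taken as a measure of tendon fibroblast RNA in other cells. For each UMI of these 4 genes there were 0.00851 Tnmd UMIs in tendon fibroblasts 1 (509 against 59844) and 0.0787 in tendon fibroblasts 2 (1153 against 14657). Endothelial cells 1 had 0.0303 (3 against 99), red blood cells 0.0635 (4 against 63) and immune cells 0.0909 (3 against 33), while pericytes had 0.593 (48 against 81). Pericytes with and without Tnmd both held fibroblast transcripts. The 27 with Tnmd had 109 UMIs of Col1a1 (361 CPM, against 306 in the 80 without), 150 of Col1a2 (497 against 435 CPM), 39 of Dcn (129 against 68.4 CPM, in 22.2% against 41.2% of cells) and 13 of Fmod (43.1 against 22.4 CPM, in 33.3% against 20.0% of cells). They had 4 UMIs of Comp (13.2 against 15.7 CPM), 3 of Chad (9.94 against 17.9) and 1 of Thbs4 (3.31 against 11.2), and Lum and Pdgfra were at 0 on both sides. The part of fibroblast RNA in the Tnmd counts was not tested. All 27 had Acta2 and Myh11, genes of the contractile apparatus of mural cells. Of the 80 pericytes without Tnmd, 76 had Acta2 and 77 had Myh11, so nearly all cells of both sides carried them.

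Pericytes with and without Tnmd were compared in libraries 1, 2 and 4, a comparison added after seeing the data, and 1 of 2789 genes passed (0.0359%). Fabp4, a fatty acid binding protein gene of capillary endothelium, had 1086, 617 and 693 CPM with Tnmd against 3244, 2727 and 3060 without (-1.92 ± 0.23, adjusted p = 0.0470 by edgeR, lower in 3 of 3 libraries). Without library 1 there were 27 calls, and without library 2 or 4 there were none. The 6 endothelial markers summed to 0 to 585 CPM with Tnmd and 607 to 1422 without, with Emcn at 0 in the cells with Tnmd, and Pecam1 was in 1 of 27 (3.70%) and 19 of 80 (23.8%) cells. Without cells that hold markers of other types Fabp4 still passed. Rgs5, a pericyte gene, had 743, 789 and 274 CPM with Tnmd against 1899, 3479 and 4150 without (-2.31 ± 0.42, adjusted p = 0.246). Acta2 had 11102, 13958 and 13776 CPM against 8674, 9454 and 5094 (0.81 ± 0.23, adjusted p = 0.474), and Cnn1, a smooth muscle calponin gene, 343, 279.9 and 201 against 74.5, 138 and 35.0 (1.82 ± 0.36, adjusted p = 0.246). For Rgs5, Acta2 and Cnn1, named after their values were seen, the 3 values with Tnmd did not overlap those without, but none passed. The median depth was 8963 UMIs with Tnmd and 9206 without.

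**Figure D5:**
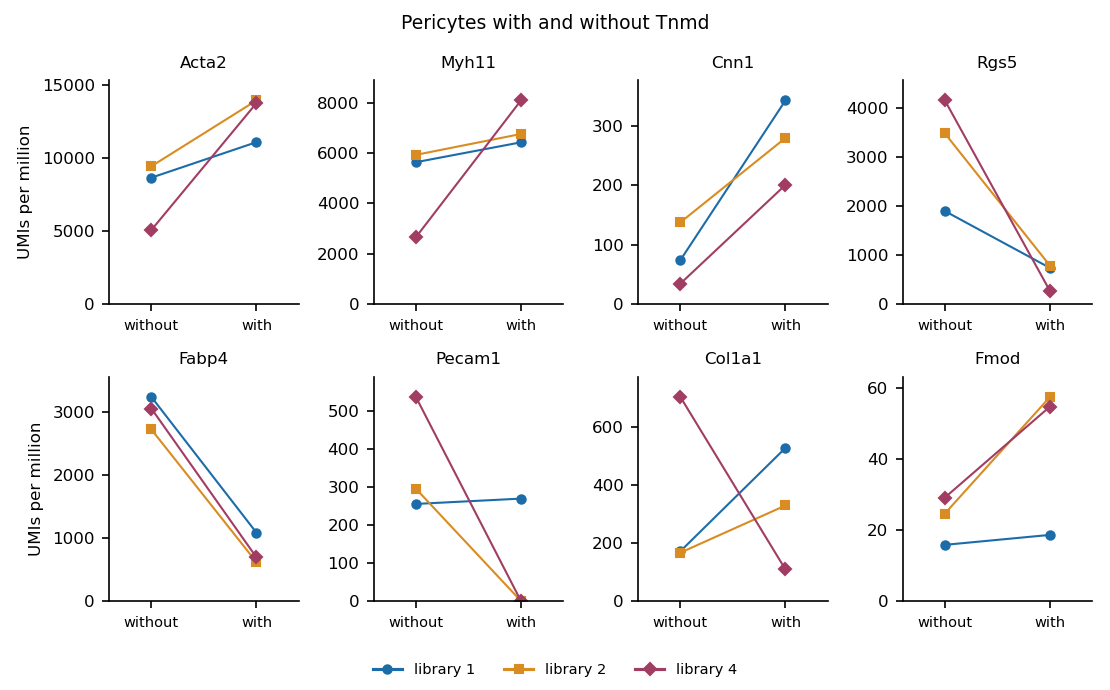
Level (y axis, UMIs per 1000000 UMIs, own scale in each panel) of 8 genes in pericytes without and with a Tnmd UMI (x axis), with 1 line for each of libraries 1, 2 and 4. Fabp4, the 1 gene that passed, is lower with Tnmd in all 3 libraries, Rgs5 is also lower and Acta2, Myh11 and Cnn1 higher in all 3, and Pecam1 and Col1a1 change direction between libraries.

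The genes whose levels were most like those of the 3 were found over 39 sums of a library and a population, among 9543 genes with enough UMIs. The points share libraries and depth, so the correlations of log2(CPM + 10) are descriptions. For Scx the nearest were Clec3a (r = 0.93), Chad (0.93), Scrg1 (0.93), Atp6v0a4 (0.92) and Angptl7 (0.92), which had 99.8 to 14343 CPM in tendon fibroblasts 1 and 3.93 to 1451 in the second population. For Mkx they were Cilp2 (0.94), Cilp (0.93), Pitx1 (0.93), a limb transcription factor, Ptgis (0.93) and 1500015O10Rik (0.92). For Tnmd they were Ptgis (0.93), the prostacyclin synthase gene, Kcnma1 (0.92), Cpxm2 (0.90), Prrx2 (0.90) and Angptl1 (0.88). Ptgis levels were 686, 389.5 and 18.4 CPM in tendon fibroblasts 1, tendon fibroblasts 2 and pericytes, and those of Kcnma1, a potassium channel gene, were 123, 45.5 and 36.0. Among the 3 genes themselves r was 0.93 for Mkx and Scx, 0.87 for Mkx and Tnmd and 0.80 for Scx and Tnmd.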

How the data were processed

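Single cells of Achilles tendon were measured in 4 libraries. The authors deposited 1 table of UMI counts per gene and cell, not normalized, and a table with each cell's library and population. Cell Ranger, Seurat 2.3.4 and R 3.5.2 stand in the submitters' processing notes, with the build mm10. Cells had at least 1010 UMIs and at most 19.99% mitochondrial UMIs. How doublets were treated is not given in the sources used here, and no doublet caller was run. Of 15750 gene entries, 4 under repeated names (0.0186% of UMIs) were left out, leaving 15746.

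Counts were summed per library and population, or per library and side of a split, in sums of 5 or more cells (2 or more where stated) with 3 or more libraries. The sums were tested with edgeR 4.0.16 (quasi-likelihood test, TMM factors, filterByExpr, library as block) in R 4.3.3, with Benjamini-Hochberg adjustment over all genes tested and a threshold of 0.05. Every adjusted p is from edgeR unless DESeq2 is named. In a split, the gene that defines it was left out. Both sums of a comparison come from the same library, which is what pairs them. The correlations of their deviations from the group means were -0.14 to 0.24 over the 12 comparisons. The fits were tested on simulated data for tendon fibroblasts 1 against 2, their Scx split and the pericyte split. Of 200 genes changed by 2 on the log2 scale, 71%, 66% and 62% were recovered, with 5, 3 and 2 false calls. The simulated counts had a fixed spread and no library effect, so recovery in the real data may differ. The comparisons of tendon fibroblasts 2 in sums of 2 or more cells, of pericytes with endothelial cells 1 and of pericytes by Tnmd were added after seeing the data.

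Alternatives were DESeq2 1.42.0, RLE factors, no low-count filter, no block, thinning to 2400 UMIs a cell (114 of 1191 cells are shallower) or 5000 (362 are), cells matched for depth, removal of cells with 3 or more UMIs of endothelial, Schwann or immune markers, and each library left out. Depth matching paired each cell of the smaller side with the nearest cell still free, with no limit on the gap. Depth could therefore stay unequal where the sides were near in size. Likeness used genes with 100 or more UMIs. The 3 genes and 14 lists of 152 genes (141 in the table) were chosen with earlier results of these data known. Named genes are the 3 genes, up to 8 called genes per direction that moved alike in every library at 50 CPM or more, called genes of the lists, and the 5 most alike. Python 3.11.15 with numpy 2.4.6, pandas 2.3.3, scipy 1.17.1 and matplotlib 3.10.9 was used for the rest. Intervals are exact at 95%, and a count of 0 is given a limit of 3 counts.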

Additional observations from a re-analysis of the deposited data

How the results depend on the processing

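Leaving out each library in turn, the genes called ranged from 362 to 529 for tendon fibroblasts 1 against 2 (572 with all), 380 to 892 for tendon fibroblasts 1 against bursal fibroblasts (777) and 149 to 399 for tendon fibroblasts 2 against them (320). For splits of tendon fibroblasts 1 the ranges were 5 to 28 for Scx (8), 0 to 6 for Mkx (2), 0 to 61 for Tnmd (0) and 0 to 30 for 2 or 3 genes against none (3). For tendon fibroblasts 2 they were 0 to 54 for Mkx and 0 to 66 for Tnmd (0 each), and for pericytes with and without Tnmd 0 to 27 (1). DESeq2 called 371, 503, 2, 0, 4, 13, 12, 82, 2 and 1670 genes in tendon fibroblasts 1 against 2, against bursal fibroblasts, in those splits in the same order, and in pericytes against endothelial cells 1 (2918 in the edgeR fit). Without a low-count filter the numbers were 1073, 1216, 727 for tendon fibroblasts 2 against bursal fibroblasts, and 33, 28, 46, 47, 65, 149 and 87 in the splits. With the filter, pericytes against endothelial cells 1 gave 1877. Thinned to 2400 UMIs, 254 genes passed for tendon fibroblasts 1 against 2, 1311 for tendon fibroblasts against all other cells (2802), 1464 for pericytes against endothelial cells 1, and 0 in the Scx, Mkx and pericyte splits. Without cells with markers of other types the splits of tendon fibroblasts 1 gave 0 (Scx), 0 (Mkx), 1 (Tnmd) and 6 (2 or 3 genes). Among cells matched for depth the pericyte split gave 2.

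Without the library as replicate block, 0 genes passed in the Scx, Mkx and 2-or-3 splits of tendon fibroblasts 1 and 3 in the pericyte split, while tendon fibroblasts 1 against 2 gave 547, of which 506 were shared. Mkx in tendon fibroblasts 1 against 2 was 1.59 with DESeq2, 1.23 without the block, 1.44 thinned and 1.03 to 2.22 with a library left out, and the call was lost in the first 3. Tnmd in that comparison was -0.85 and passed with no low-count filter, and was -1.73 to -0.27 with a library left out. In the split by Scx, Mkx turned to 0.25 without library 1 and was -0.37 at the lowest with a library left out. In the split by Mkx, Scx turned to 0.03 with no filter, 0.02 without the block, 0.02 at matched depth, 0.15 without cells with other markers and up to 0.81 with a library left out (lowest -0.00). The cause of these changes was not tested, beyond the fewer cells or libraries that some settings hold.

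At 2400 UMIs the mean share of tendon fibroblasts 1 with a UMI was 17.0% for Scx (36.8%), 19.2% for Mkx (40.7%, and 25.2% at 5000 UMIs) and 35.8% for Tnmd (63.6%). For tendon fibroblasts 2 it was 2.39% for Scx (14.6%, and 8.88% at 5000) and 5.95% for Mkx (23.8%). Cells with 2 or 3 of the genes fell to 16.1% at 2400, 27.9% at 5000 and 17.3% with 2 or more UMIs required (45.9%) in tendon fibroblasts 1, and to 4.90% and 7.40% at 2400 and with 2 or more UMIs (25.5%) in tendon fibroblasts 2. Over all settings, 196 values of main results kept their direction and side of the threshold or their size, 66 moved, 5 lost a call and 2 gained one. Of single genes 159 values kept both, 54 lost the call, 5 gained it and 6 turned. Thinned sums left too few libraries for the comparisons with bursal fibroblasts and the Tnmd split of tendon fibroblasts 2.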
